A study of Mus musculus with 37 samples.

Results

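Eosinophils are granulocytes of allergic and anti-helminth immunity, and their response to the bacterial endotoxin LPS was measured by RNA-seq as the difference between LPS-treated and untreated bone marrow-derived eosinophils. The comparison rested on 4 libraries, 2 in each group. Transcripts were summed per gene, and a gene was kept if its value reached 10 in at least 1 of both groups, which left 5559 of the 6509 genes of the table. Both groups came from C57Bl6cJ mouse bone marrow cells grown into eosinophils in culture, and neither received IL-10. The treated group was given LPS at 100 ng/ml for 4 h, and the treatment scheme of the study placed its harvest after that of the untreated group, so LPS and the longer culture cannot be told apart. The same pair of groups was used for mast cells, also grown from bone marrow, for neutrophils of the bone marrow, for dendritic cells of the spleen (sDCs) and for thioglycollate-elicited macrophages of the peritoneum. The study had kept the neutrophils overnight with GM-CSF to mature them. Each group had 2 replicates, which the study took from independent mice.

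The deposited table holds only the authors' mean of both replicates, so every value below is a mean without an SD and no difference could be tested. Sequencing depth cannot be read from these values, so no counting interval or detection limit is given, and a value of 0 is written as listed at 0. Log2 fold changes are log2((LPS + 1)/(untreated + 1)), which understates the change of genes with low values, and "raised" or "lowered" means a change of 2-fold or more on that scale. The values are normalised expression values, that is, tag counts per transcript that the authors corrected for GC content, and all 18 columns of the table have the same highest value (185338). They are compared here mainly for the same gene across groups. Where genes are ordered by level, put in classes of level or summed, this is a description only.

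LPS is recognised by Toll-like receptor 4 with its partner MD-2 (Ly96). An early arm of signalling through MyD88 drives NF-κB and MAP kinases and the genes of inflammation, and a later arm through TRIF (Ticam1) and IRF3 gives type I interferon, which acts back on cells through its receptor to induce antiviral genes. Eosinophils store granule proteins such as eosinophil peroxidase (Epx) and release cytokines of type 2 immunity, among them IL-4 and IL-13.

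Eosinophil markers stayed under 2-fold. Of 23 eosinophil markers, 10 were held in the table and all 10 were kept, with none raised or lowered and a median log2 fold change of -0.18. Among all kept eosinophil genes 2.16% were raised and 0.702% lowered, so a count of 0 among 10 is near that share. Epx stood at 185338 in both groups, which is the ceiling of the table, so a difference above that value could not show. Ccr3, the eotaxin receptor, was 45989.5 untreated and 36018 with LPS, and Alox15, an arachidonate lipoxygenase, was 77214.5 and 59602. Il1rl1, the IL-33 receptor, was 7657 and 7191. The F4/80 gene Emr1 was 14338.5 and 22514.5, and its relative Emr4 was 5906 and 11447.5, the marker nearest to a 2-fold change. Emr1 is also in the macrophage marker list and makes up most of that list's sum, which was 14901 untreated and 23023 with LPS. Its part in the results was not tested. Of the 7 macrophage markers held, 5 were below 10 in both groups, among them Marco, listed at 0 and then at 3, and Cd68 was 547 and 496.5. Neutrophil markers were present without a common rise, with Retnlg at 1497 and 1119 and Mpo at 149 and 170.5, while the neutrophil elastase gene Elane went from 8 to 30. The B cell gene Cd79b was 63.5 and 65.5.

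LPS raised 120 of the 5559 genes (2.16%) and lowered 39 (0.702%). The corresponding share of genes raised was 4.71% in mast cells, 8.71% in neutrophils, 8.98% in sDCs and 12.6% in macrophages, so eosinophils had the smallest share of the 5 cell types. Most eosinophil genes hardly moved, with a median absolute log2 fold change of 0.10 against 0.24 in mast cells, 0.35 in neutrophils, 0.44 in sDCs and 0.53 in macrophages. Over the raised genes alone, the median log2 fold change was 1.75 in eosinophils, beside 1.77 in macrophages and 1.69 in mast cells. Eosinophils had 3.08 raised genes for each lowered gene, whereas this ratio lay between 0.784 and 1.11 in the other cell types. The median gene moved by -0.02 in eosinophils, -0.15 in macrophages and -0.14 in sDCs.

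**Figure D1:**
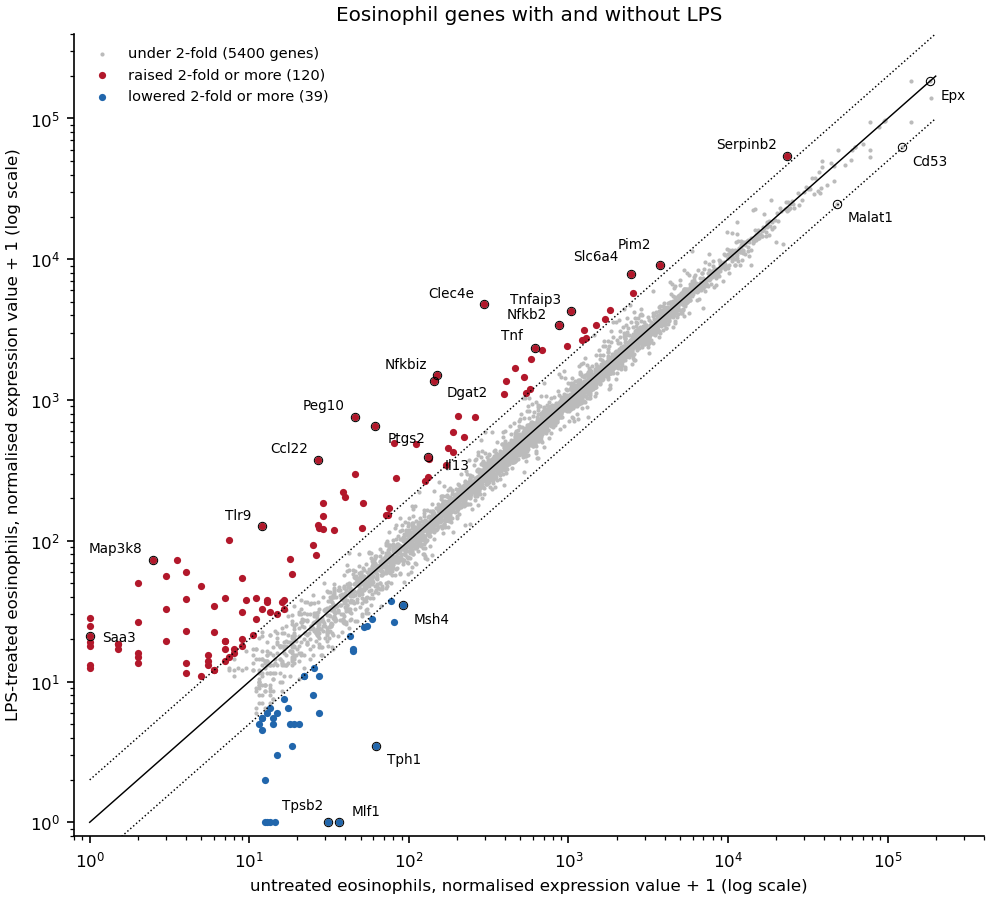
Normalised expression values plus 1 of the 5559 genes kept in eosinophils, untreated on the x axis and LPS on the y axis, both on log scales. Each point is 1 gene (mean of 2 replicates), the solid line marks equal values and the dotted lines 2-fold changes. The 120 raised genes (red) reach from values of 0 up to Serpinb2 at 54549 with LPS, whereas all 39 lowered genes (blue) lie below 100.

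The share of genes called depended on their level. Of 534 genes whose higher value lay from 10 to under 50, 53 (9.93%) were raised and 32 (5.99%) lowered. From 50 to under 200, 22 of 818 were raised and 7 lowered. Among 1971 genes from 200 to under 1000, 20 (1.01%) were raised, and among 2236 genes at 1000 or more, 25 (1.12%) were raised, with no gene lowered in either class. The 67 raised genes with a higher value of at least 50 therefore carry most of the description below. Along the limit itself, Tnip1 (0.99) and Birc3 (0.99) lay just under a 2-fold rise and Zc3h12c (1.03) and Ifi47 (1.04) just over it. Cd53 (-0.98) and Malat1 (-0.95) lay just outside a 2-fold fall, and Tcf7l2 (-1.10) and BC057022 (-1.05) just inside.

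The genes of the NF-κB circuit included several with large rises. Map3k8, the Tpl2 kinase that links NF-κB to ERK signalling, went from 1.5 to 72.5 (log2 fold change 4.88), while in the other 4 cell types it changed by 1.43 to 3.03. Its change ranked first with the pseudocount of 1, but with a pseudocount of 5 it was 3.58, below those of Clec4e (3.99), Peg10 (3.94) and Ccl22 (3.62). Nfkbiz, which encodes the nuclear coactivator IκBζ, went from 150 to 1508.5 (3.32). Tnfaip3, which encodes the feedback inhibitor A20, went from 1038.5 to 4319 (2.06), and Nfkb2, the precursor of p52, from 875 to 3398.5 (1.96). Of 15 kept genes of NF-κB subunits and inhibitors 4 were raised in eosinophils, against 4 in sDCs, 8 in mast cells, 9 in neutrophils and 12 in macrophages. The share of all kept genes that were raised was 2.16% in eosinophils and 4.71% to 12.6% in the other cell types. The list's median log2 fold change was 0.35 in eosinophils, beside -0.02 over all genes. The subunit genes Nfkb1 (p105/p50), at 6840.5 and 8022 (0.23), and Rel, at 346 and 442 (0.35), did not pass 2-fold. The subunit genes Rela and Relb were not analysed here. Nfkb1 was raised in all 4 other cell types, by 1.01 to 2.87. Ikbke, the IKKε kinase, went from 583 to 1966.5 (1.75) and was the only gene raised among 12 kept genes of TLR4 and its proximal signalling.

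Of the raised genes of this circuit with a promoter window, Nfkb2 and Tnfaip3 had NF-κB consensus matches and Ikbke had none. Map3k8 and Nfkbiz had no window and were not searched. The windows of Nfkb2 and Tnfaip3 are shown with those of Oasl1 and Tifa, raised genes outside the NF-κB list with large rises. The windows come from RefSeq on GRCm38.p6 and run from 250 bases before to 50 bases after the annotated start, 5′ to 3′ on the gene's strand, with matches to the consensus on either strand in capitals. A run of 11 capitals is a pair of overlapping matches. A match to this consensus was found in 8.46% of all 32851 windows of the RefSeq table. Oasl1 (chr5:114922990-114923289, plus strand) and Tifa (chr3:127790407-127790706, plus strand) are the raised genes with the largest rises whose window holds a match, whereas Nfkb2 (chr19:46304487-46304786, plus strand) and Tnfaip3 (chr10:19015361-19015660, minus strand) were chosen after their values were seen.
Oasl1: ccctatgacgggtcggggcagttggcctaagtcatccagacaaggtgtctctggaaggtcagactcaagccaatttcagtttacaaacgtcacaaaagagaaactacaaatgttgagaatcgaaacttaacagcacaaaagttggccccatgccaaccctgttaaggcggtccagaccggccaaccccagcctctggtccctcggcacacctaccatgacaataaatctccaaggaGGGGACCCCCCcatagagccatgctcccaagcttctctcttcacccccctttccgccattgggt
Tifa: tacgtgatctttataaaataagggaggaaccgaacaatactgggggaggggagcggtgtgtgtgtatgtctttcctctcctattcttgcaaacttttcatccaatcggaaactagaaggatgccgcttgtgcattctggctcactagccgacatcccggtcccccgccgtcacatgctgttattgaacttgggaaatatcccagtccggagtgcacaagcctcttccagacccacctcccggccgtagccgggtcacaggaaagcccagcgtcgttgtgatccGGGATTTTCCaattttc
Nfkb2: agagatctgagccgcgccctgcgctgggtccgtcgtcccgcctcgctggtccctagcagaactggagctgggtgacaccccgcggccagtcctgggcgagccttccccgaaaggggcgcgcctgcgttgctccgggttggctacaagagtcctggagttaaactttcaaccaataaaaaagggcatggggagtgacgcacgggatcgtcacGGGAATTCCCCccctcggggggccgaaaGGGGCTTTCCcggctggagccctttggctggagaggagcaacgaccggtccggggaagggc
Tnfaip3: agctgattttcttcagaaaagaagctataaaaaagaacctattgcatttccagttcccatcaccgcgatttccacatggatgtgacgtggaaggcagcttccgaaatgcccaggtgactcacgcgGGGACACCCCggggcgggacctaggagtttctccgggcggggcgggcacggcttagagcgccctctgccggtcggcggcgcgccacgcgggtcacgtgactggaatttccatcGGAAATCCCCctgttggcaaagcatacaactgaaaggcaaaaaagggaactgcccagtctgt
The match of Tifa begins 33 bases after the start, and those of Nfkb2 begin 39, 38 and 11 bases before it. Only 53 of the 67 raised genes with a value of at least 50 had a window in the table, under 80%, so the share of raised genes with a match was not compared with other genes.

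Genes of microbial sensing held further raised genes, among them 3 of the list's 5 C-type lectins. Clec4e, which encodes Mincle, a receptor for mycobacterial glycolipids, went from 296.5 to 4776.5 (4.01), a rise in the range of the other cell types (3.21 to 4.85). Its neighbours in the same gene cluster, Clec4d (174 to 453, 1.38) and Clec4n, which encodes Dectin-2 (187.5 to 424.5, 1.17), were raised as well. Tlr9, the endosomal receptor for CpG DNA, went from 11 to 126.5 (3.41), while it changed by 2.19 in neutrophils and by -0.72 to 0.45 in the other 3. Casp4, the mouse caspase-11 that senses cytosolic LPS, went from 201 to 773.5 (1.94). With Ifih1 (124.5 to 265.5), an RNA sensor induced by interferon, this made 6 raised of 16 kept pattern recognition and inflammasome genes, with a median of 0.55. Among all kept eosinophil genes 2.16% were raised. Clec7a, which encodes Dectin-1 (647.5 and 928, 0.52), Clec2d (1738.5 and 1846, 0.09), Tlr13 (1191 and 1167), Pycard (1641.5 and 1588.5) and Nod2 (290 and 347) stayed under 2-fold. Tifa, an adaptor of TRAF6 signalling, went from 28 to 184 (2.67) and changed by -0.78 to 0.53 elsewhere.

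Genes of secreted factors were only partly covered, with 15 of 36 listed interleukins, 7 of 35 chemokines and 7 of 18 TNF superfamily ligands held. Eosinophils raised 2 of 9 kept interleukins, 2 of 3 kept chemokines and 2 of 4 kept TNF superfamily ligands, beside 2.16% of all kept genes. Ccl22, a ligand of the Th2 cell receptor CCR4, went from 26 to 376 (3.80), and Tnf from 619.5 to 2343.5 (1.92). Tnf ended far lower than in the other cell types with LPS, where it lay between 5661.5 in mast cells and the ceiling of 185338 in macrophages. Il13 went from 130 to 390.5 (1.58), whereas Il4 was 775.5 and 864 (0.16). With LPS the Il13 value was much like that of neutrophils (387) and mast cells (341.5), and it was 3 and 4 in macrophages and sDCs. Ltb, the lymphotoxin β gene, went from 1284.5 to 2778.5 (1.11) and Cxcl16 from 12 to 36 (1.51). Il12b, the shared subunit of IL-12 and IL-23, went from 0.5 to 16.

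Many cytokine genes that the remaining cell types raise were under 2-fold or not kept in eosinophils. Of 15 held interleukin genes 9 were kept in eosinophils and 2 raised (median 0.08), against 5 raised of 10 kept in mast cells (1.10), 9 of 12 in sDCs (3.08), 10 of 13 in neutrophils (2.83) and 12 of 13 in macrophages (5.21). The share raised over all kept genes was 2.16% in eosinophils, 4.71% in mast cells, 8.98% in sDCs, 8.71% in neutrophils and 12.6% in macrophages. Il27 was 78.5 and 83 (0.08), with rises of 3.30 to 8.58 elsewhere. Ebi3, which pairs with the Il27 product, was 2431.5 and 4695 (0.95). Il10 was listed at 0 and then at 3.5, Il12a was 3 and 2, and Csf2, the gene for GM-CSF, was 0.5 and 3.5. Csf1 was high and level at 6166.5 and 6398, while its log2 fold change was 1.29 to 3.57 in macrophages, neutrophils and sDCs and -0.19 in mast cells. Of 10 held colony-stimulating and growth factor genes 3 were kept in eosinophils, and Igf1 was the 1 lowered (16.5 to 5.5).

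The acute phase list held several raised genes, and the eicosanoid enzyme list 1. Ptgs2, which encodes the inducible cyclooxygenase COX-2, went from 60.5 to 653 (3.41), and it was the only 1 raised of 10 kept eicosanoid enzyme genes. Ptges, the prostaglandin E synthase downstream of it, was 166 and 242 (0.54), with rises of 2.04 to 5.04 in the other cell types. Alox5 (25425 and 24786) and Lta4h (17565.5 and 18486.5), enzymes of leukotriene synthesis, stayed level. Dgat2, which makes triglycerides, went from 143.5 to 1372 (3.25). In the acute phase list 6 of 12 kept genes were raised, with a median of 1.03 that lay among those of the other cell types (0.95 to 1.75). They were C3 (45 to 298.5), Cfb (1 to 14), Slc11a1 (110 to 486.5), Serpina3f (17.5 to 57.5), Serpinb2 (23522.5 to 54549) and Saa3 (listed at 0, then 20). Cfb and Saa3 were kept only through their LPS values, which lifts this count and median. Such members also enter the list in other cell types. The share raised among all kept eosinophil genes was 2.16%. Slc11a1, which encodes the phagosomal metal transporter NRAMP1, changed by -0.96 to 0.70 in the other cell types, all of them under 2-fold. Nos2, the inducible nitric oxide synthase, was 1 and 5, below the minimum, and 185.5 to 6709 with LPS elsewhere.

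**Figure D2:**
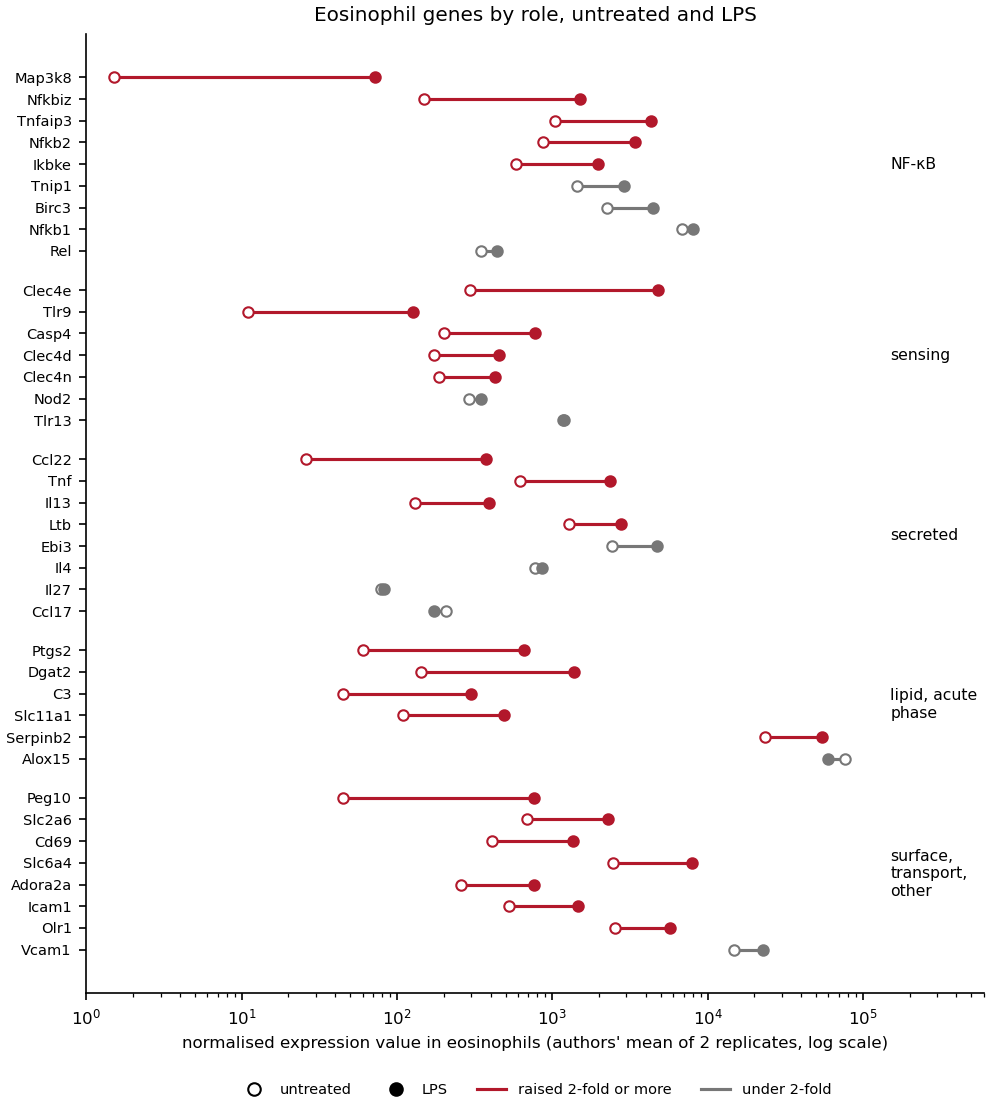
Normalised expression values of 38 genes in eosinophils on a log axis, untreated (open circles) and with LPS (filled circles), as the authors' means of 2 replicates, grouped by role. Red lines mark the raised genes, from Map3k8 (1.5 to 72.5) to Serpinb2 (23522.5 to 54549), and grey lines those under 2-fold, such as Nfkb1, Il4, Il27 and Alox15.

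Further raised genes encoded surface proteins, transporters and nuclear receptors. The adhesion ligand Icam1 went from 524 to 1458 (1.47), while Vcam1, at 14784.5 and 22729 (0.62), was under 2-fold in eosinophils and raised in the other 4. The leukocyte activation marker Cd69 went from 406.5 to 1358.5 (1.74). Of 17 kept chemoattractant receptor genes 4 were raised, beside 2.16% of all kept genes, and the median of the list was 0.08. They were Adora2a for adenosine (257.5 to 757, 1.55), Niacr1 for nicotinic acid (540 to 1113, 1.04), Gpr84 for medium-chain fatty acids (1 to 49.5, 4.66) and the fractalkine receptor gene Cx3cr1 (5 to 33.5, 2.52). Adora3, another adenosine receptor gene (5280.5 and 5183), and the nucleotide receptor gene P2ry2 (993.5 and 1052) stayed level. Slc6a4, the serotonin transporter, went from 2461 to 7881.5 (1.68), the highest LPS value among the 5 cell types. The hexose transporter Slc2a6 went from 682 to 2277 (1.74) and was the only 1 raised of 16 kept genes of glycolysis and glucose transport. Of the orphan nuclear receptors of the Nr4a family, Nr4a1 was raised from 188.5 to 589.5 and Nr4a3 from 6.5 to 99.5. Nr4a2, at 6.5 and 14, lay exactly at the 2-fold limit, and no single transcript of it reached 10. Peg10, an imprinted gene derived from a retrotransposon, went from 45 to 761.5 (4.05). It was also raised in neutrophils (3.10), mast cells (2.86) and sDCs (1.86), but not in macrophages (0.19). The genes raised at the highest levels, after Serpinb2, were the survival kinase gene Pim2 (3723 to 9060.5), Slc6a4 and the scavenger receptor gene Olr1 (2531.5 to 5751.5).

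Of the 120 raised genes 100 (83.3%) were also raised in at least 1 other cell type and 38 in all 4. The overlap with neutrophils held 85 genes, 70.8% of the eosinophil list and 16.5% of the neutrophil list. With macrophages it held 75 genes (62.5% and 9.88%), with mast cells 65 (54.2% and 24.3%) and with sDCs 55 (45.8% and 10.2%). Beside these overlaps, the share raised over all kept genes was 8.71% in neutrophils, 12.6% in macrophages, 4.71% in mast cells and 8.98% in sDCs. Across the 5115 genes kept in all 5 cell types, eosinophil log2 fold changes had a Pearson r of 0.58 with those of neutrophils, 0.51 with mast cells, 0.39 with macrophages and 0.37 with sDCs. These describe genes that share libraries and are not independent points. Only 8 raised genes changed by less than 1.2-fold upward in each of the other 4 cell types, and 7 of them had values below 50. The exception was Klrb1b, a lectin-like receptor gene of natural killer cells, which went from 39 to 204 (2.36). The others, among them Cx3cr1 (5 to 33.5), Elane (8 to 30) and Camk2b (3 to 12.5), were near the minimum.

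Lowered genes were few and low. Only 7 of the 39 had a higher value of 50 or more, and the highest, Msh4, a meiotic mismatch repair gene, was 90.5 and 34 (-1.39). Agbl2 went from 80 to 25.5 (-1.61), Il13ra1, a chain of the IL-13 and type 2 IL-4 receptors, from 54 to 24 (-1.14), and Tph1, the first enzyme of serotonin synthesis, from 61.5 to 2.5 (-4.16). S1pr1, a receptor for sphingosine 1-phosphate that guides egress of leukocytes, went from 43.5 to 16 (-1.39). Mlf1 was 35.5 untreated and listed at 0 with LPS. Of 5 held mast cell markers 2 were lowered, both from low values. The tryptase gene Tpsb2 (30 untreated) and Mrgprb2 (12.5) were listed at 0 with LPS, Kit, the most abundant of the 5, was 220.5 and 176 (-0.32), and Tpsab1 and Mrgprb1 were listed at 0 in both groups, with the sum of all 5 at 263 untreated and 176 with LPS. In mast cells, Tpsb2 reached 187854 untreated and Tph1 54476.5. Of the 39 lowered genes 10 (25.6%) had their highest untreated value in mast cells, beside 26.6% of all kept genes, and the part of a change in mast cell admixture was not tested. Fewer cells of a type and less RNA per cell cannot be told apart in such bulk samples.

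The fall of genes seen in the other cell types was mostly missing. A set of 29 genes was lowered in all 4 of them, and 3 of these were lowered in eosinophils, namely Tifab, P2ry6 and 5430435G22Rik, all 3 with untreated values under 20. Over the 23 kept members the median log2 fold change in eosinophils was -0.35. Abcd2 was 1346 and 1274 (-0.08) in eosinophils and fell by 1.25 to 3.93 on the log2 scale elsewhere. The chemoattractant receptor list had 1 lowered gene of 17 kept in eosinophils (S1pr1), against 0 of 15 in mast cells, 4 of 19 in sDCs, 9 of 19 in neutrophils and 11 of 19 in macrophages. Over all kept genes the share lowered was 0.702% in eosinophils, 5.41% in mast cells, 11.5% in sDCs, 7.83% in neutrophils and 14.7% in macrophages. Cxcr2 (1265 and 973) and Ccr2 (269 and 179.5) stayed under 2-fold in eosinophils.

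The shared LPS response served as a measure of what eosinophils lacked. Of 5272 genes kept in the 4 other cell types, 86 (1.63%) were raised in all 4. Eosinophils raised 38 of these, 10 reached 1.5-fold to under 2-fold, 10 reached 1.2-fold to under 1.5-fold, 13 were kept but stayed below a 1.2-fold rise and 15 were not kept because both values were under 10. The other 48, 55.8%, were thus missing from the raised genes. When each cell type was left out in turn and set against the genes raised in the remaining 4, macrophages raised 38 of 40, neutrophils 38 of 39, mast cells 38 of 42 and sDCs 38 of 52, against 38 of 86 in eosinophils. The median log2 fold change of the 86 genes was 1.09 in eosinophils, 2.43 in mast cells, 3.26 in neutrophils, 3.43 in sDCs and 3.54 in macrophages. Eosinophils had the smallest change of the 5 cell types in 62 genes, and their LPS value was below the lowest of the others in 66. Their median LPS value was 135, against 369 in mast cells and 2388 to 5614 in the remaining 3, and their median untreated value was 44, against 55 in mast cells and 212 to 303.5 in the remaining 3. The choice of genes raised in the other 4 fixes that those are high, so these counts and medians carry no test. By that choice, any kept gene under 2-fold in eosinophils has the smallest change of the 5 cell types. The 38 genes are the same in every comparison, namely those raised in all 5 cell types.

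**Figure D3:**
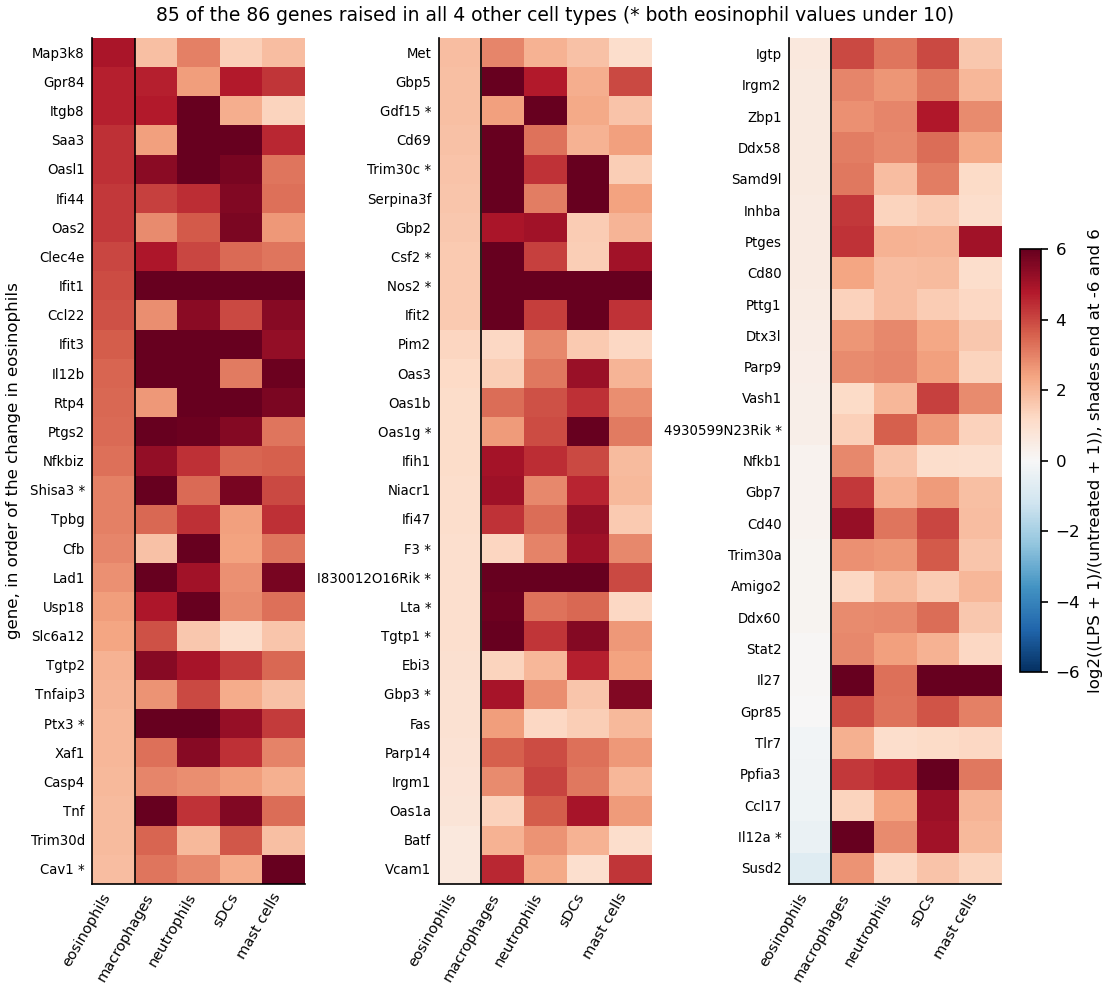
Log2 fold changes of 85 of the 86 genes raised in macrophages, neutrophils, sDCs and mast cells, with eosinophils in the left column of each panel and genes in order of their change in eosinophils (red, higher with LPS, shades end at 6). The eosinophil column fades from 4.88 (Map3k8) to below 0 while the other columns stay red, and stars mark the 15 genes with both eosinophil values under 10.

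The missing genes were of several kinds. The 13 kept genes without a rise of 1.2-fold were Il27, the co-stimulatory receptor gene Cd40 (146 and 170.5, 0.22, against 1.85 to 5.22 elsewhere), Nfkb1, Stat2 (1281.5 and 1359), the chemokine gene Ccl17 (206 and 174), Tlr7 (17.5 and 15.5), Trim30a, Ddx60, Gbp7, Ppfia3, Gpr85, Amigo2 and Susd2, which was 10.5 and 6 (-0.72). Inflammatory genes that were not kept included Nos2, Csf2, Il12a, Ptx3, Lta and F3, the tissue factor gene, whose eosinophil values with LPS lay between 1 and 5. Genes that came close included Ebi3, the death receptor gene Fas (700.5 and 1314, 0.91) and Parp14 (564.5 and 1033.5, 0.87). Of the 86 genes, eosinophils raised 13 of 20 with untreated values from 10 to under 100 and 9 of 35 at 100 or more. Of the 31 with untreated values under 10, 16 were raised and the other 15 were not kept, a count that the minimum of 10 sets, since such a gene is kept only through its LPS value. Among the 35 genes at 100 or more the median log2 fold change was 0.60 in eosinophils, while the median over genes of the other cell types' median was 2.70.

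Eosinophils raised fewer of the listed interferon-induced genes than the other cell types did. Among the 86 genes of the shared response, eosinophils raised 13 of the 27 in the interferon list and 25 of the 59 outside it, which also hold interferon-induced genes such as Oas1b, Ifi47 and Irgm2. Of 58 listed genes 35 were held and 32 kept in eosinophils, and 13 of these were raised (median 0.68). In the other cell types 31 to 33 of the 35 were raised, with medians of 2.27 to 3.35. Over all kept genes the share raised was 2.16% in eosinophils and 4.71% to 12.6% elsewhere. Of the 10 genes with untreated eosinophil values under 10, 7 were kept, and these passed only through their LPS values. Oasl1 went from 2.5 to 72 (4.38), Oas2 from 2 to 55 (4.22) and Ifit1 from 3 to 59 (3.91). All 5 genes with untreated values from 10 to under 100 were raised, among them Usp18, a brake on interferon signalling, from 37.5 to 219.5 (2.52), with a median over the 5 of 1.60 in eosinophils and of 2.81 to 4.88 in the other cell types. Of the 20 genes at 100 or more only Ifih1 was raised (1.09), with a median over the 20 of 0.39 in eosinophils against 1.62 in mast cells, 2.42 in sDCs, 2.55 in neutrophils and 2.76 in macrophages. The class at 100 or more had the smallest median in each of the other cell types too, where the 10 genes of the lowest class had medians of 3.63 in mast cells, 4.52 in macrophages, 6.22 in sDCs and 6.30 in neutrophils. Irf1 was 1063.5 and 1074.5 (0.01), Trim30a 1116 and 1260 (0.17), and Ddx58, the RIG-I gene, 1162.5 and 1744 (0.58).

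The gap to the other cells lay in the LPS values more than in the untreated ones. The median untreated value over the 35 genes was 267.5 in eosinophils, 299.5 in neutrophils, 250.5 in mast cells, 928 in sDCs and 1024 in macrophages. The median LPS value was 265.5, 3698, 1098, 8359.5 and 7826.5 in the same order. In eosinophils 10 of the 35 genes reached 1000 with LPS, against 18 in mast cells, 31 in neutrophils, 33 in sDCs and 35 in macrophages. The eosinophil LPS value was the lowest of the 5 cell types for 32 genes and the log2 fold change the smallest for 28. Even the strongly raised genes ended low, with Ifit1 at 59 in eosinophils and at 820 in mast cells, 8220 in neutrophils, 15299 in sDCs and 53218 in macrophages. Igtp, an interferon-induced GTPase gene, began at much the same value in eosinophils (428), neutrophils (396) and mast cells (451) and ended at 654, 3663.5 and 1369. Some genes upstream of the interferon response were expressed in eosinophils and stayed under 2-fold, whereas Ikbke, of the TLR4 signalling list, was raised (1.75). Ticam1 was 900.5 and 903 in eosinophils and 705 to 1886.5 untreated elsewhere, Irf3 was 1508 and 1493.5 against 1013 to 1710, and Ifnar1 was 1400 and 1737.5 against 1414.5 to 4538. Ly96 was 123.5 and 122.5, with untreated values of 93 to 504 elsewhere. The genes of TLR4 itself and of type I interferons were not analysed here.

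**Figure D4:**
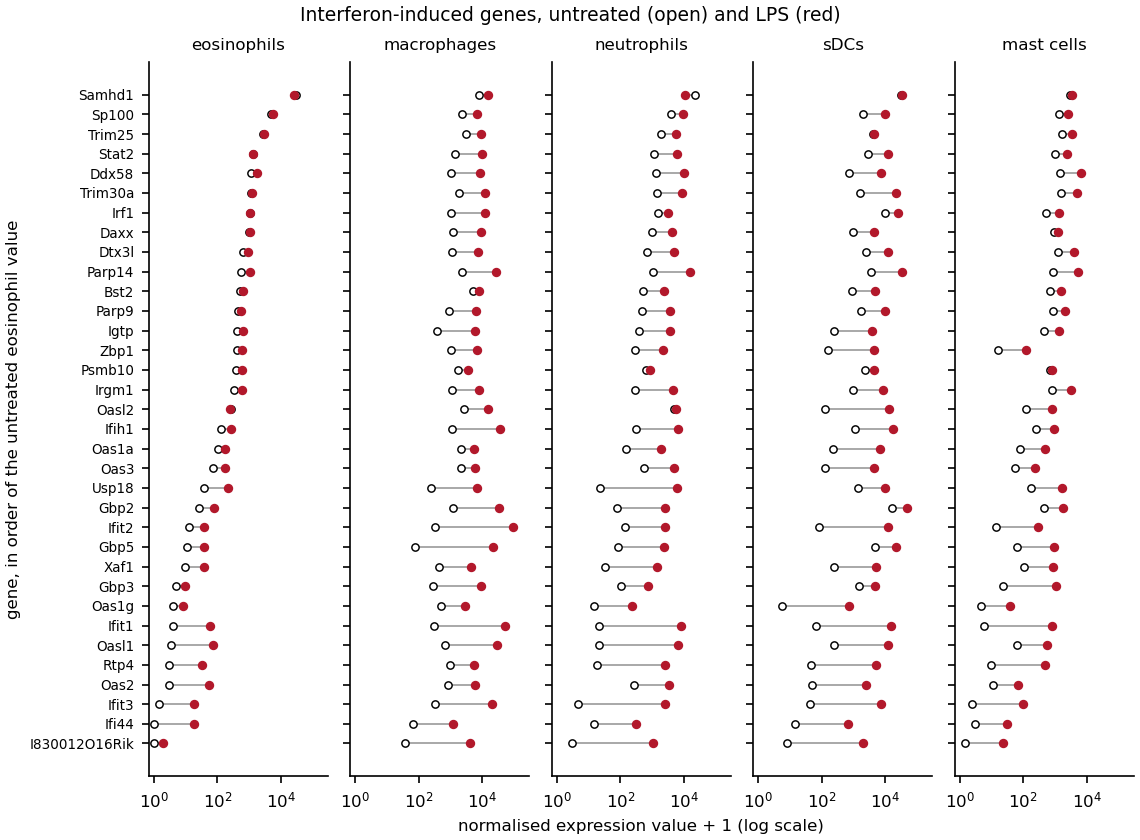
Normalised expression values plus 1 (log axes) of 34 of the 35 interferon-induced genes in each cell type, untreated (open) and with LPS (red), as means of 2 replicates, with genes in order of their untreated eosinophil value. In eosinophils the circles lie close together for most of the 19 genes shown at 100 or more, with log2 fold changes from -0.13 up to 1.09 for Ifih1, whereas they lie apart for most genes in the other cell types.

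Matches to the interferon-stimulated response element stood in some promoter windows of both the missing and the raised genes. Of 42 windows found for 37 of the 48 missing genes 17 held a match, and of 72 windows found for 53 of the 67 raised genes with a value of at least 50, 15 did, among them windows of Ifit1. These windows cover under 80% of each set, so the shares were not compared. Igtp (chr11:58199306-58199605, plus strand) and Oas1a (chr5:120907476-120907775, minus strand) are shown as the kept genes of the interferon list with a match that were missing in eosinophils and had the largest median change elsewhere, with Oas1a at 104 and 176.5 (0.76). Capitals mark matches to GAAANNGAA on either strand, a pattern found in 8.56% of all 32851 RefSeq windows.
Igtp: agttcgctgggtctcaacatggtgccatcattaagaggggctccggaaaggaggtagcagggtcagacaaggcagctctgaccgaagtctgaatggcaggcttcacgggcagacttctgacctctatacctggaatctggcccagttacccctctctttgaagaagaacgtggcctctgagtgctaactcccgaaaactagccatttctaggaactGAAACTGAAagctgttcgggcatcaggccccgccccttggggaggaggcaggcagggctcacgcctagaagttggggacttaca
Oas1a: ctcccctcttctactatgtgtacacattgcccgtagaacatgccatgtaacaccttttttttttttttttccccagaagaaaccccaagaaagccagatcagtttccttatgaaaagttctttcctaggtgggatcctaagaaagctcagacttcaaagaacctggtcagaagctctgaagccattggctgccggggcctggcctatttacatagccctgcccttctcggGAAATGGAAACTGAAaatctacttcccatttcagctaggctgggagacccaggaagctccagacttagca
The match of Igtp begins 34 bases before the start, and those of Oas1a begin 20 and 14 bases before it.

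Several other lists held no called gene in eosinophils. None of 13 kept cell cycle genes, 12 ribosomal protein genes, 12 unfolded protein and heat shock genes, 11 apoptosis genes, 6 housekeeping genes or 4 interferon regulatory factors was raised or lowered, with medians from -0.15 to 0.22. Among all kept eosinophil genes 2.16% were raised and 0.702% lowered, so a count of 0 in lists this short is near that share. Of 26 kept cytokine receptor genes 0 were raised and Il13ra1 was the 1 lowered, and of 12 kept STAT and SOCS genes Pim2 was the 1 raised. The AP-1, early growth response and Dusp list had 4 raised genes of 17 and a median of 0.31, much like the NF-κB list. They were the 3 Nr4a genes, with Nr4a2 at the limit, and Dusp16 (131.5 to 281), while Fos (268 and 208) and Junb (2099 and 2521) were under 2-fold. In the co-stimulation and antigen presentation list only Daf2, a paralogue of the complement regulator gene Cd55, was raised (listed at 0, then 27.5) of 12 kept genes, and Cd80 was 491.5 and 709.5 (0.53). Daf2, like the Oas1, Gbp, Tgtp, Trim30, Clec4 and tryptase genes, has a near-identical relative, so its value depends on how reads were divided among copies.

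**Figure D5:**
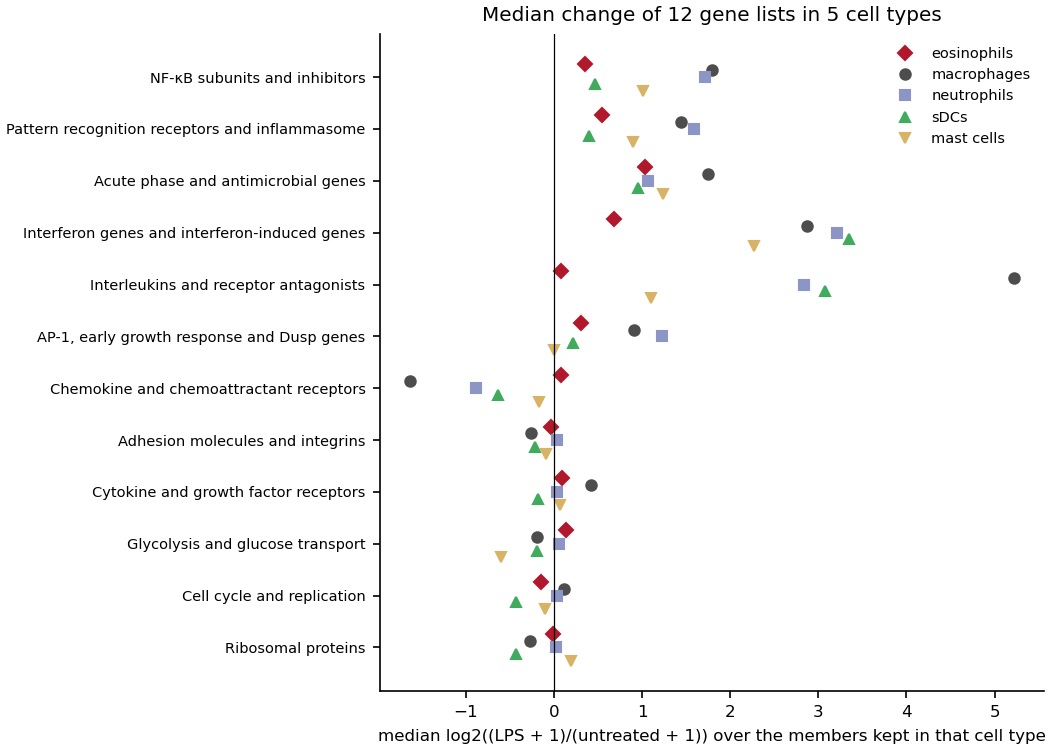
Median log2 fold change over the kept members of 12 gene lists in 5 cell types (diamonds, eosinophils). Eosinophils lie at 0.68 for interferon-induced genes and 0.08 for interleukins, left of the other 4 cell types, and among them for acute phase genes at 1.03. In each cell type, members with untreated values under 10 are kept only through their LPS values, which can lift a median.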

How the data were processed

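RNA of mouse myeloid cells was sequenced by the study, and the authors deposited 1 table with a value per transcript for 18 groups, 2 libraries each. These deposited values are a normalised score. To make them, the authors aligned reads with bowtie 0.12.9 and estimated transcript tags with RSEM 1.2.1 on the Ensembl 67 annotation (mm9), corrected GC bias in EDASeq 1.8.0, and took the mean of each pair of replicates. All 18 columns share the maximum of 185338. Depth per library cannot be recovered from the values. Of 37 samples, 1 has no column and was not used here. The copy of the table is a part: 17015 complete lines, of which 22 (0.129%) name no gene, left 16993 transcripts of 6509 genes, and genes outside it were not analysed here. The IL-10 groups were not used. A gene counted in the lists but left out of 2 figures is not reported here.

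Transcripts were summed per gene with Python 3.11.15, numpy 2.4.6 and pandas 2.3.3, and drawn with matplotlib 3.10.9. A gene was kept in a cell type if either value reached 10, a pseudocount of 1 was added, and a change of 2-fold was called. Since the table holds means, the planned rule of size was used without any test. The procedure was tested on simulated data that held no variation between animals and had changes only in well expressed genes. It therefore does not show how well changes at low values are called. Alternatives were pseudocounts of 5 and 10, minimums of 50, 100 and none, calls at 1.5-fold and 4-fold, the most abundant transcript per gene, and centring on the median. Genes were named by a rule: the 25 largest rises and falls with a value of at least 50, the 10 called at the highest levels, genes raised in all 4 other cell types, genes raised in eosinophils and by less than 1.2-fold elsewhere, and members of fixed lists. Genes outside it, such as those just beside the 2-fold limit, were chosen after their values were seen. The members and lists were chosen with earlier results of these data known. Promoter windows came from RefSeq (GRCm38.p6), and 5273 of 6509 genes matched by symbol or synonym. The NF-κB consensus and GAAANNGAA were searched on both strands.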

Additional observations from a re-analysis of the deposited data

How the results depend on the processing

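No paired analysis was possible because the table used here holds only the means of both replicates, and for the same reason no replicate could be left out. The 120 raised genes became 67 at a minimum of 50, 57 at 100 and 228 with no minimum, 204 at 1.5-fold and 48 at 4-fold, and lay between 93 and 152 under the other alternatives. The 39 lowered genes became 23 and 17 with pseudocounts of 5 and 10, 7 and 0 at minimums of 50 and 100, 172 with no minimum, 126 at 1.5-fold, 12 at 4-fold and 68 with the most abundant transcript, so the number of lowered genes rests on low values. The 48 genes missing from the shared response became 74 at 1.5-fold and 22 at 4-fold and otherwise lay between 37 and 52. Their share of the shared response ran from 45.7% with no minimum to 69.8% at a minimum of 100. Eosinophils had the smallest share of raised genes of the 5 cell types under all 9 alternatives. Of the 120 raised genes 93 were also called with a pseudocount of 10, 111 with the most abundant transcript and 120 after centring. Among lowered genes, Tcf7l2 changed sign to 1.00 with its most abundant transcript. With means alone, low values limit the precision and no spread between animals can be given.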

Other observations

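Several genes that changed in eosinophils were picked after their values were seen, and all of them but Abca1 were outside the lists. Beside the rise of the serotonin transporter gene Slc6a4 and the fall of Tph1, the serotonin receptor gene Htr2b went from 19.5 to 4 (-2.04). Slc6a4 was also raised in macrophages (2.91), neutrophils (1.54) and mast cells (2.24). Tdo2, which degrades tryptophan, went from 26.5 to 10 (-1.32), all at low values apart from Slc6a4. Abca1, a cholesterol exporter, was 17 and 73 (2.04) and was the only 1 raised of 12 kept genes of sterol synthesis and transport, whose median was -0.13. Among all kept eosinophil genes 2.16% were raised, so 1 raised gene in a list this short is not far from that share. Faah, which hydrolyses endocannabinoids, was 574 and 1192 (1.05). Faah was under 2-fold or lowered in the other cell types, with log2 fold changes of -1.43 to 0.68. Itsn1, an endocytic scaffold gene, went from 80 to 496 (2.62), as it did in neutrophils (2.74) and mast cells (2.44), while it was level in macrophages (-0.03) and sDCs (-0.05).

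Some of the most abundant eosinophil transcripts were lower with LPS by less than 2-fold. The tetraspanin gene Cd53 was 122520 and 62327, the nuclear RNA Malat1 48017.5 and 24852.5, Csf2rb, the shared receptor chain for IL-5, IL-3 and GM-CSF, 140192 and 95014, and the ribosomal gene Rplp0 77554.5 and 53020. Changes of Cd53 of like size were measured in macrophages (-0.91), sDCs (-0.89) and mast cells (-1.01), and the opposite in neutrophils (0.74).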
